A study of Schizosaccharomyces pombe with 32 samples.

Results

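Transcripts of nuclear pore and nuclear transport genes of fission yeast (Schizosaccharomyces pombe) were followed through hydrogen peroxide stress and through growth without it. The genes were taken by symbol: names of the form nup, kap, sal or imp with a number, leaving out imp2, together with crm1, pim1, spi1, mog1, hba1, mex67, rae1 and nxt1. These made up 38 of the 4972 probe sets of the array, with 1 probe set per gene. The rule used symbols and no measured values, but it was set with earlier results of these data known. Of the 10 genes sought by full name, sxn1 and dbp5 were not matched here. The 38 members comprised 20 nucleoporins, 11 karyopherins, 4 genes of the Ran cycle and 3 genes of messenger RNA export. The symbol imp3 came in through the name pattern. In budding yeast Imp3 is a protein of the ribosomal RNA processing machinery and no transport receptor, so counts that it touches are also given for the other 37.

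The nuclear pore is a ring of nucleoporins set into the nuclear envelope. A scaffold, made of the Y complex and an inner ring, carries the nucleoporins that line the channel, those of the cytoplasmic face and those of the nuclear basket. Karyopherins bind cargo and carry it through the channel, and the small GTPase Ran, called Spi1 in fission yeast, gives the traffic its direction because its exchange factor sits on chromatin. Messenger RNA leaves by another route, on the export receptor Mex67. The peroxide response of fission yeast itself runs through this traffic, since the exportin Crm1 removes the transcription factor Pap1 from the nucleus until the cell is oxidised.

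Total RNA of strain JB50, whose homothallic cells switch mating type and so can mate within a culture, was hybridised to 32 single-colour Affymetrix arrays. In the stressed series 2 batch cultures in rich medium received 0.5 mM hydrogen peroxide and were sampled just before it and at 5, 10 and 15 min, then at 30, 50, 60 and 90 min, and last at 120, 180 and 240 min. In the untreated series 2 further cultures of the same strain and medium, without peroxide, were sampled at 0, 60, 120, 180 and 240 min. This gave 16 groups of 2 arrays, and the number of arrays limits the precision of every value. Which of the starting densities in the growth notes belongs to which stressed culture is not stated there. The comparisons ask which of these transcripts moved after peroxide, which moved in untreated cultures, and whether the changes differed between the series.

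Signals are the deposited values per probe set on a linear scale, and the scale of their calibration is unknown. Array medians lay between 1.52 and 2.0, and all deposited signals were above 0. The 30 min array of stressed culture 2 stood apart, its best correlation with any other array over all probe sets being 0.909, against 0.973 or more for the others. In a check of the treatment, 11 of 11 oxidative stress genes had a mean change above 0 at 60 min. Their median was 1.57 above that of all probe sets on the log2 scale. Even so, limma called 0 of them (lowest adjusted p = 0.0504, 7 with an unadjusted p under 0.05). By culture, their median less that of all probe sets was 1.67 and 1.66 at 60 min in stressed cultures 1 and 2. It was 0.48 and 2.03 at 120 min, 0.01 and 1.96 at 180 min, and -0.11 and 1.93 at 240 min. Stressed means at these later times therefore average 2 cultures that stood apart in this check. Changes below are log2 differences with their standard error (SE) from limma, and a transcript was called where the p-value, adjusted over all 4972 probe sets (Benjamini-Hochberg), was under 0.05. Changes within 1 culture were taken against its own 0 min array and were not tested, for want of a replicate. Where groups of 2 arrays are said not to overlap, this is a description without a test. The share of all probe sets without overlap between 2 times was not counted. How common this is on the array is therefore not known, and it is not read as evidence that a gene changed. In RNA of whole cultures, fewer cells with a transcript and less of it per cell cannot be told apart.

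After peroxide, none of the 38 members passed the test at any of the 10 times, nor in an F-test over all of them. The changes with the greatest mean at 60 min were those of kap123 (-1.01), nup131 (0.96) and imp3 (-0.95). The limma fit of all arrays called 24 of the 4972 probe sets (0.483%) in the F-test, where the lowest adjusted p among members was 0.533 and 2 members had an unadjusted p under 0.05. At 5, 10 and 15 min it called 0 probe sets of any kind, and 0 members had an unadjusted p under 0.05. At 30 min it called 1.07% of all probe sets, at 50 min 0.302%, at 60 min 0.543% (0.442% higher, 0.101% lower) and at 90 min 0.322%, and the members with an unadjusted p under 0.05 numbered 5, 4, 5 and 2. At 120, 180 and 240 min it called 0.161%, 0.0402% and 0.0201% of all probe sets, with 0 members at an unadjusted p under 0.05. Both series at 0 min were also compared, and 0 of 38 members and 0 of all probe sets were called, with 0 members at an unadjusted p under 0.05.

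The count of 0 members called depended on which arrays entered the fit. In a fit of the stressed arrays from 0 to 60 min alone, imp3 was called lower at 50 min, when 10.3% of all probe sets were called, and 0 members at 60 min, when 9.27% were. In a fit of those arrays with the untreated ones, chosen after seeing the data, imp3, kap123 and nup131 were called at 50 min (14.9% of all probe sets) and kap123 and nup131 at 60 min (14.2%). The adjusted p at 60 min in that fit was 0.0385 for kap123 and 0.0453 for nup131. Leaving out the whole of stressed culture 1 puts 1 array in each stressed group, takes the spread from the untreated groups alone and assumes that the stressed arrays vary like them. Under that assumption imp3, kap123 and nup131 were called at 90 min, imp3 and kap123 at 120 min and kap123 at 180 min. The calls of nup40 at 30 min and of kap123 and nup40 in the F-test in that fit include the array that stood apart, which for nup40 at 30 min is the only one.

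In stressed cultures a smaller share of the members than of all probe sets lay at least 2-fold from its 0 min signal, a description without a test. At 60 min 5.26% of the members lay that far away in each stressed culture, against 16.7% of all probe sets in culture 1 and 21.6% in culture 2. The members at that distance in culture 2 were 3 at each of 90, 120, 180 and 240 min (7.89%), where all probe sets had between 24.9% and 27.2%. In culture 1 there were 0 from 90 min on, where all probe sets had between 8.93% and 2.33%. By mean log2 signal over all arrays, ranked into 4 bins of equal size, 4 members lay in the dimmest bin of probe sets, 9 and 18 in the next ones and 7 in the brightest. Over the members the change at 60 min had an SD of 0.41 and 0.48 in cultures 1 and 2, against 0.94 and 0.96 over all probe sets.

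**Figure D1:**
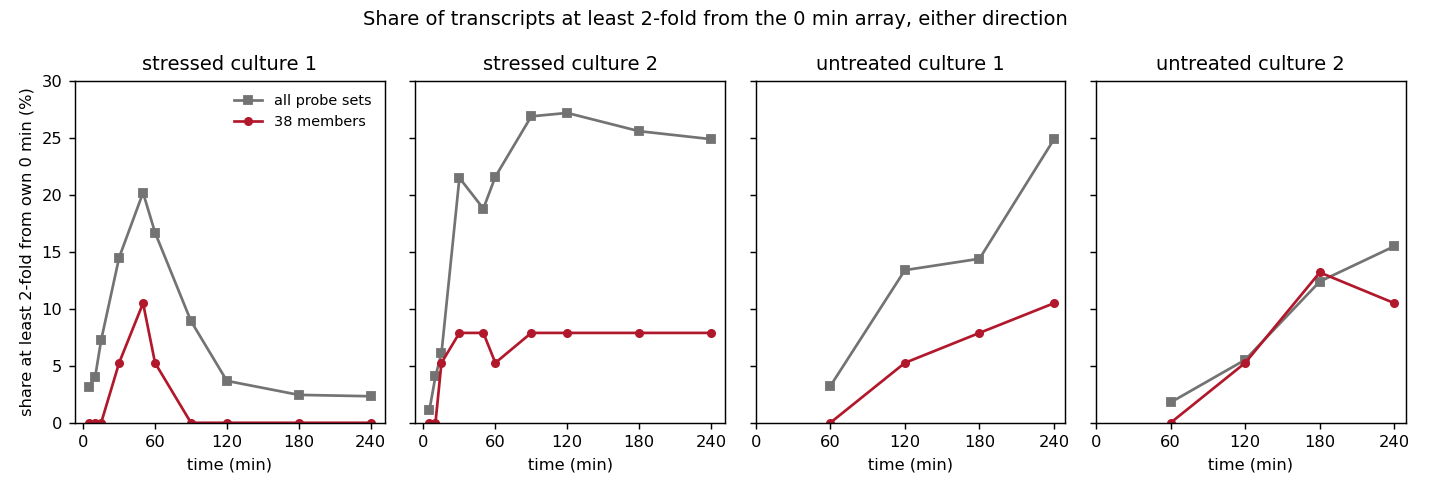
Share (%) of the 38 members (red circles) and of all 4972 probe sets (grey squares) whose signal was at least 2-fold from the same culture's 0 min array, in either direction, against time in min, with 1 array per point. In both stressed cultures the members lie below all probe sets at every time from 5 min on, with 5.26% against 16.7% and 21.6% at 60 min, whereas in untreated culture 2 at 180 min they reach 13.2% against 12.4%.

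Over the 38 members, the changes of stressed cultures 1 and 2 had r = 0.65 at 50 min and r = 0.61 at 60 min, and r = -0.30 at 240 min. Over all probe sets the same figures were 0.85, 0.83 and 0.04, and each culture's changes share its 0 min array. The members with the same sign in both cultures numbered 22, 17, 21 and 15 of 38 at 50, 60, 90 and 240 min. Lower in both were 14, 14, 15 and 9 of them, against 47.4%, 45.6%, 40.7% and 23.9% of all probe sets. Higher in both were 8, 3, 6 and 6, against 32.8%, 32.8%, 25.5% and 21.3% of all probe sets. At 60 min the members' median change, taken relative to the median of the whole array, was -0.23 in culture 1 and 0.09 in culture 2. The widest gaps between the cultures at 240 min were those of imp3, where the change in culture 2 less that in culture 1 was -1.61, of rae1 (-1.43) and of kap123 (-1.39). At the other end stood nup131 with 1.07.

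**Figure D2:**
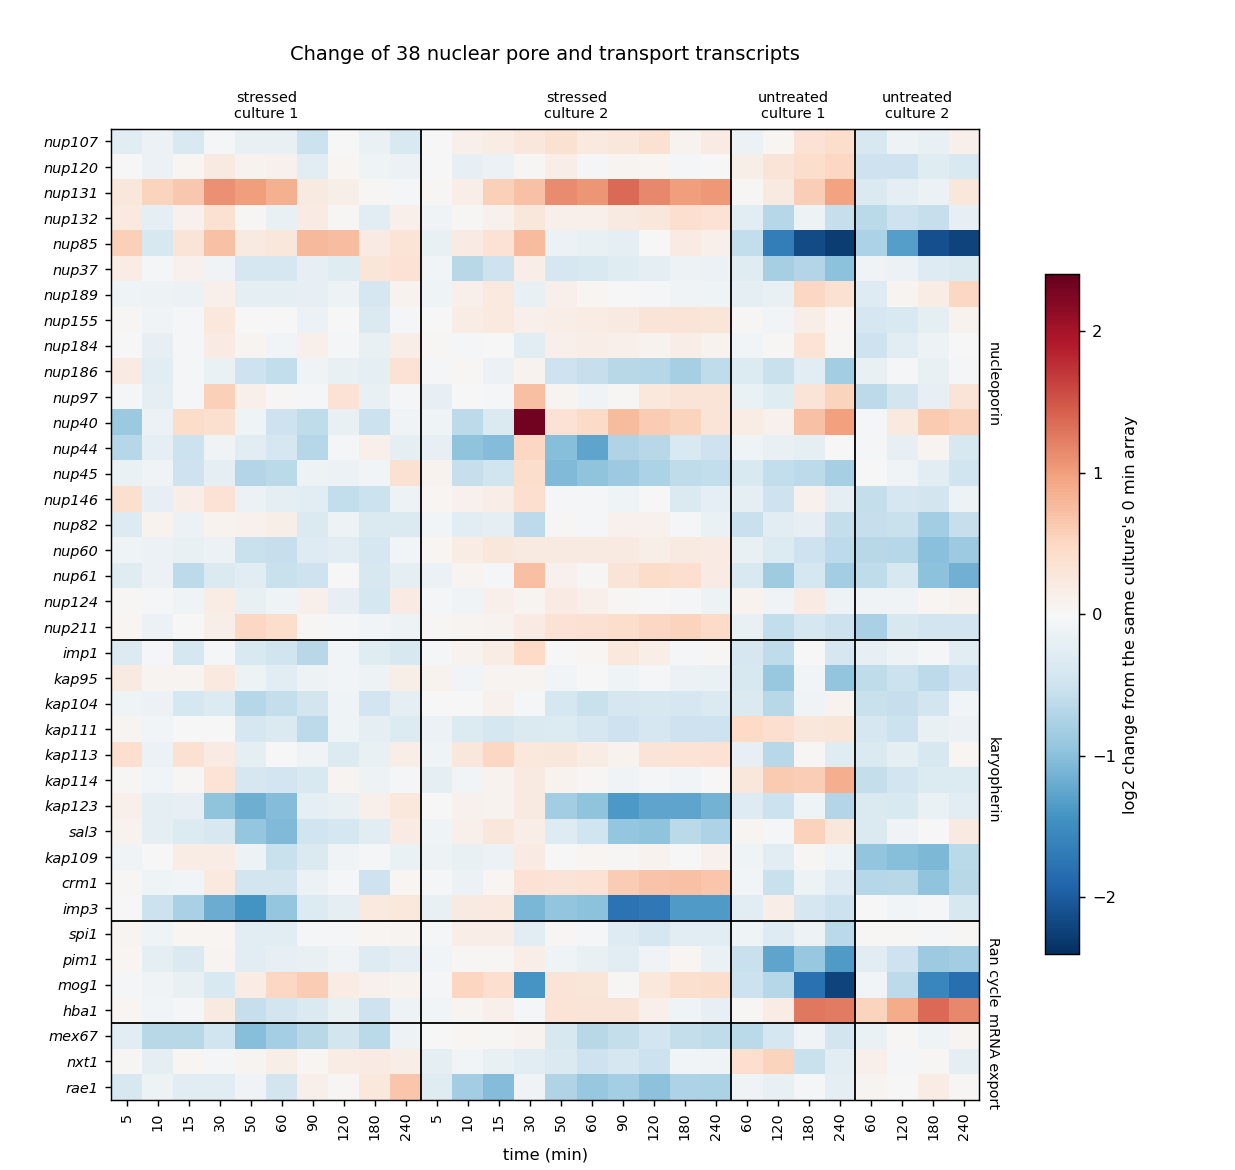
Log2 change of each of the 38 members (rows, by class) from the same culture's 0 min array, by culture and time in min (columns), with red above and blue below 0 and 1 array per cell. At 240 min the darkest blue cells are those of nup85 and mog1 in both untreated cultures, and the darkest red cell is nup40 on the 30 min array of stressed culture 2.

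Among nucleoporins of the Y complex, the scaffold unit that shapes the pore membrane, nup131 stood out. It is 1 of a pair of genes for homologues of vertebrate Nup133. At 0, 30, 60 and 240 min its signal in stressed culture 1 was 1.34, 2.86, 2.44 and 1.32. In stressed culture 2 the signals at 0, 60, 90 and 240 min were 1.06, 2.22, 2.73 and 2.19. Both cultures were above their 0 min signals at 60 min without overlap, and from 120 min on culture 1 alone was near its first value (1.48 at 120 min). The change was 0.90 ± 0.36 at 30 min, 1.07 ± 0.36 (SE, adjusted p = 0.168) at 50 min and 0.96 ± 0.36 (adjusted p = 0.188) at 60 min, from a signal of 1.2 ± 0.198 (SD, n = 2) to 2.33 ± 0.156. In untreated cultures its signal was 1.03 and 1.26 at 0 min, 1.04 and 0.996 at 60 min, and 2.01 and 1.53 at 240 min, a change of 0.63 ± 0.36 (adjusted p = 0.325) at 240 min.

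The other gene of that pair, nup132, was set beside it after its values were seen. Its signal was 1.42 and 1.49 at 0 min in the stressed cultures and 1.26 and 1.62 at 60 min, so that the times overlapped. The change at 60 min was -0.03 ± 0.28 (SE, adjusted p = 0.959), with a 95% interval from -0.61 to 0.55. The difference between the pair was not tested. The other 5 Y complex members, nup85 among them, had mean changes at 60 min between -0.39 (nup37) and 0.05 (nup85), with 0 called.

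Both members classed here with the central channel, whose disordered repeats fill the pore, had lower mean signals at 10 and 15 min and at 50 and 60 min. Their mean changes lay between -0.59 and -0.32 at 10 min and between -0.78 and -0.49 at 15 min, with 0 called. At 30 min, when the array of culture 2 stood apart, they lay between 0.09 and 0.2. The signal of nup45 was 3.06 and 4.11 at 0 min in cultures 1 and 2, 1.89 and 1.98 at 50 min and 1.96 and 2.11 at 60 min. Both later times lay below both first values. The change of nup45 was -0.88 ± 0.30 (SE, adjusted p = 0.169) at 50 min and -0.80 ± 0.30 (adjusted p = 0.187) at 60 min. At 240 min nup45 stood at 3.94 and 2.71, overlapping its first values (-0.12 ± 0.30, adjusted p = 0.948). The signal of nup44 was 2.85 and 2.79 at 0 min and 2.17 and 1.17 at 60 min, again without overlap, and its change was -0.83 ± 0.40 (adjusted p = 0.275). The change of nup44 lay between -1.27 and -0.38 when 1 of the 60 min arrays was left out. At 240 min nup44 stood at 2.42 and 2.0 (-0.36 ± 0.40, adjusted p = 0.942).

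In the inner ring, which anchors the channel nucleoporins, nup186 had 2.30 and 2.48 at 0 min and 1.52 and 1.68 at 60 min. These did not overlap, and its change was -0.58 ± 0.28 (SE, adjusted p = 0.271). Culture 1 stood at 2.90 at 240 min and culture 2 at 1.63. The signal of nup97 was 0.860 and 0.756 at 0 min and 1.28 and 1.24 at 30 min, above both first values, a change of 0.64 ± 0.20 (adjusted p = 0.126). With the culture as a block, which pairs the arrays of a culture, nup97 was called at 30 min (adjusted p = 0.0303), when 8.17% of all probe sets were. By 60 min nup97 was at 0.877 and 0.710.

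The signal of nup40, a gene of the inner ring, was 1.5 and 0.865 at 0 min and 1.96 and 4.30 at 30 min, a change of 1.35 ± 0.45 (SE, adjusted p = 0.153). The highest of these, in culture 2, came from the array that stood apart. Without that array 0 members were called at 30 min. Without the 30 min array of culture 1, which leaves that array alone in its group and assumes that it varies like the other groups, nup40 and mog1 were called (275 of all probe sets). At 60 min nup40 stood at 1.07 and 1.18, inside the range of its 0 min values.

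At the cytoplasmic face, where export complexes come apart, nup146 had 2.39 and 2.55 at 0 min and 2.04 and 2.48 at 60 min. These overlapped, with a change of -0.13 ± 0.24 (SE, adjusted p = 0.794). The 4 basket genes, nup60, nup61, nup124 and nup211, had mean changes between -0.26 and 0.40 at 60 min. Of all 20 nucleoporins, 9 had a mean change above 0 at 60 min and 11 below, and their median was 0.08 above that of all probe sets. Among the 4972 probe sets 2097 were above 0 and 2875 below.

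Of the karyopherins, 10 of 11 had a mean change below 0 at 60 min after peroxide (9 of 10 without imp3), with a median -0.13 less that of all probe sets in either count, and 0 were called. Leaving imp3 aside, the greatest changes were in kap123, whose homologue imports ribosomal proteins and histones in budding yeast, and in sal3, the importin gene needed for nuclear Cdc25. At 0, 50, 60 and 240 min kap123 had 9.40, 4.17, 4.53 and 11.2 in stressed culture 1. In culture 2 it had 9.73, 5.45, 4.98 and 4.41 at those times. Both cultures were lower at 60 min without overlap (4.76 ± 0.322 against 9.56 ± 0.232, SD, n = 2, a change of -1.01 ± 0.48, SE, adjusted p = 0.262), and at 240 min culture 1 alone was back above its first value (-0.44 ± 0.48, adjusted p = 0.942).

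The same split was seen in sal3 and imp3. The signal of sal3 was 5.70 and 6.04 at 0 min, 2.74 and 4.32 at 60 min and 6.50 and 3.59 at 240 min. Its groups at 0 and 60 min did not overlap, and the change was -0.77 ± 0.33 (SE, adjusted p = 0.225), or between -1.1 and -0.44 with 1 of the 60 min arrays left out. That of imp3 was 7.59 and 6.63 at 0 min, 4.02 and 3.35 at 60 min and 9.09 and 2.60 at 240 min, a change of -0.95 ± 0.63 (adjusted p = 0.41) at 60 min. Genes of ribosome biogenesis, by a list of 19 symbols, showed the same cultures apart: their median less that of all probe sets was -1.04 and -1.15 at 60 min in cultures 1 and 2, and 0.09 and -1.08 at 240 min, with 0 of 19 called at 60 min (13 with an unadjusted p under 0.05). Their part in the values of kap123, sal3 and imp3 was not tested.

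**Figure D3:**
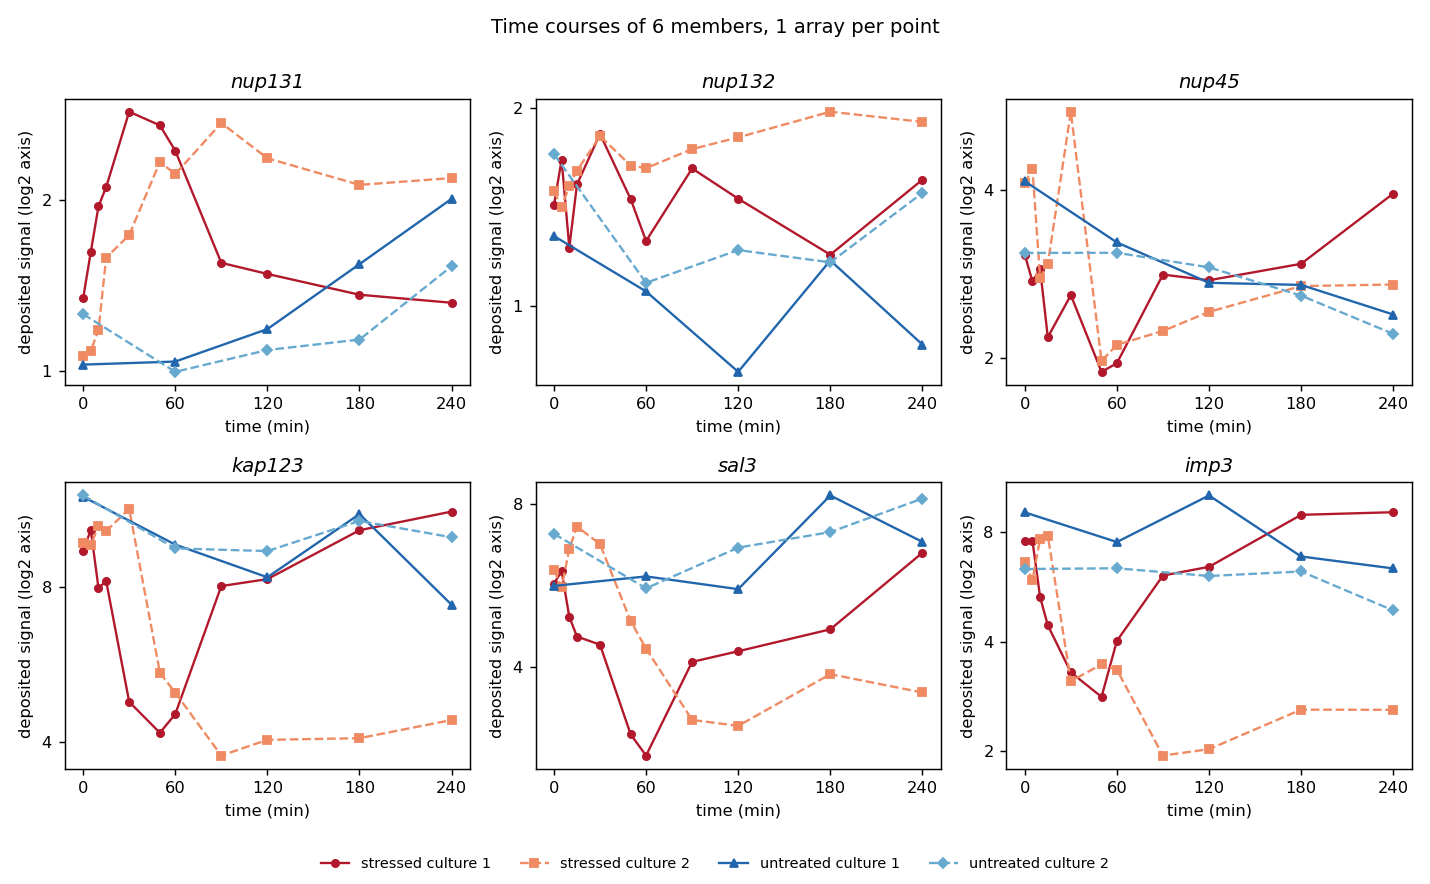
Deposited signal (log2 axis) against time in min for nup131, nup132, nup45, kap123, sal3 and imp3, with 1 array per point, stressed cultures in red (circles) and orange (squares) and untreated cultures in dark blue (triangles) and light blue (diamonds). After 60 min kap123, sal3 and imp3 in stressed culture 1 return to 11.2, 6.50 and 9.09 at 240 min, whereas in stressed culture 2 they stand at 4.41, 3.59 and 2.60.

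The exportin gene crm1 had 3.90 and 3.88 at 0 min in the stressed cultures, 2.87 and 4.91 at 60 min and 3.996 and 6.14 at 240 min. At 60 min the cultures lay on either side of the first values, and at 240 min both lay above them. Its change was -0.05 ± 0.38 (SE, adjusted p = 0.951) at 60 min and 0.35 ± 0.38 (adjusted p = 0.942) at 240 min, with a 95% interval from -0.45 to 1.14. Untreated cultures had 3.43 and 5.22 at 0 min and 2.76 and 3.29 at 240 min (-0.49 ± 0.38, adjusted p = 0.485).

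The karyopherin gene kap113 had the highest mean change of its class at 60 min, 0.08 ± 0.26 (SE, adjusted p = 0.894), from 0.777 and 0.744 to 0.770 and 0.835. These values overlapped. The gap between the stressed cultures at 240 min was smallest for kap114, with 1.58 and 1.63 at 0 min and 1.54 and 1.61 at 240 min (-0.03 ± 0.29, adjusted p = 0.987). Importin alpha (imp1), importin beta (kap95), the transportin gene kap104, kap111 and the importin alpha exporter gene kap109 had mean changes at 60 min between -0.55 (kap104) and -0.13 (kap95).

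In the Ran cycle, 0 of 4 genes were called after peroxide. Ran itself, spi1, had signals of 25.8 and 24.2 at 0 min, 21.7 and 23.5 at 60 min and 27.1 and 20.3 at 240 min. Its change was -0.15 ± 0.23 (SE, adjusted p = 0.756) at 60 min, with a 95% interval from -0.63 to 0.34, although the groups did not overlap. The gene of its exchange factor, pim1, had 3.57 and 4.43 at 0 min and 3.10 and 3.94 at 60 min (-0.19 ± 0.32, adjusted p = 0.787). The gene of the Ran-binding protein mog1 had 2.15 and 1.99 at 0 min and 3.03 and 2.44 at 60 min (0.39 ± 0.32, adjusted p = 0.513), with no overlap.

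At 30 min mog1 had 1.67 and 0.745, a change of -0.89 ± 0.32 (SE, adjusted p = 0.195), and the lower value came from the array that stood apart. The Ran-binding protein gene hba1 had 1.10 and 1.09 at 0 min and 0.804 and 1.34 at 60 min, on either side of its first values (-0.08 ± 0.29, adjusted p = 0.908). Of the Ran cycle genes, mog1 alone had a mean change above 0 at both 60 and 240 min.

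All 3 genes of messenger RNA export had mean changes below 0 at 60 min, as had 2875 of all 4972 probe sets. Their median less that of all probe sets was -0.57, with 0 called. The receptor gene mex67 had 1.49 and 1.43 at 0 min, 0.850 and 0.903 at 60 min and 1.36 and 0.932 at 240 min. The first and the 60 min values did not overlap, and the change was -0.74 ± 0.33 (SE, adjusted p = 0.237). Its partner gene nxt1 had 3.38 and 2.44 at 0 min and 3.72 and 1.74 at 60 min (-0.17 ± 0.54, adjusted p = 0.887), where the cultures lay further apart than the times. The export factor gene rae1, named after its values were seen, had 2.43 and 3.38 at 0 min and 1.79 and 1.80 at 60 min (-0.68 ± 0.34, adjusted p = 0.29). The change of rae1 lay between -0.92 and -0.44 when 1 of the 0 min arrays was left out. At 15 min rae1 already had a mean change of -0.66 ± 0.34 (SE, adjusted p = 0.999). At 240 min rae1 was at 3.86 in culture 1 and at 2.0 in culture 2.

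In untreated cultures a few members passed the test: nup85 and mog1 fell, pim1 fell at 240 min and hba1 rose. At 60 min 0 of 38 members were called, when 0.0402% of all probe sets were, and 3 members had an unadjusted p under 0.05. At 120 min 1 member was called (nup85, lower), when 1.13% of all probe sets were. At 180 min 3 members were called, nup85 and mog1 lower and hba1 higher, against 5.53% of all probe sets (1.87% lower, 3.66% higher). At 240 min 4 were called, nup85, mog1 and pim1 lower and hba1 higher, against 9.86% (3.96% lower, 5.89% higher). At 180 and 240 min these counts of 3 and 4 of 38 were near the share of all probe sets called. So was the count of 0 of 38 after peroxide, where at most 1.07% of all probe sets were called at any time. The counts therefore set no contrast between the series that is particular to the members.

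The transcript of nup85, a subunit of the Y complex, fell in both untreated cultures. At 0, 60, 120, 180 and 240 min its signal in culture 1 was 0.610, 0.402, 0.193, 0.139 and 0.125. In culture 2 it was 0.596, 0.351, 0.236, 0.139 and 0.127. Every later array lay below both 0 min arrays, and each time lay below the time before it in both cultures. The fall was from 0.603 ± 0.01 (SD, n = 2) to 0.126 ± 0.0012 at 240 min. Its change was -0.68 ± 0.30 at 60 min, -1.5 ± 0.30 (SE, adjusted p = 0.0123) at 120 min, -2.12 ± 0.30 (adjusted p = 0.000242) at 180 min and -2.26 ± 0.30 (adjusted p = 0.000116) at 240 min.

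The signal of nup85 lay in the dimmest of 4 equal bins of all probe sets, and the floor of the deposited signal is unknown, so these changes hold for the deposited scale alone. With a pseudocount of 0.1 the change at 240 min was -1.64. The call at 120 min was lost with the arrays compared alone (adjusted p = 0.12), without either untreated 0 min array (0.103 and 0.138), or with the 120 min array of culture 1 left out (0.208). Without the whole of an untreated culture no test of nup85 in that series passed (adjusted p of 0.0532 or more without culture 1, and 0.262 at 120 min and 0.0697 at 180 min without culture 2), except at 240 min without culture 2.

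The transcript of mog1, which in budding yeast binds Ran and helps nuclear import, fell later. In untreated culture 1 its signal was 2.61, 1.82, 1.63, 0.756 and 0.559 from 0 to 240 min, and in culture 2 it was 1.80, 1.72, 1.16, 0.612 and 0.514. The arrays at 180 and 240 min lay below every earlier untreated array. The change was -0.29 at 60 min, -0.66 ± 0.32 (SE, adjusted p = 0.541) at 120 min, -1.67 ± 0.32 (adjusted p = 0.00325) at 180 min and -2.02 ± 0.32 (adjusted p = 0.000557) at 240 min, from 2.21 ± 0.57 (SD, n = 2) to 0.537 ± 0.0316. The call at 180 min was lost without the 0 min array of culture 1 (adjusted p = 0.0639), without the 180 min array of culture 2 (0.0571), or without the whole of culture 1 (0.224) or culture 2 (0.138), and the call at 240 min without the whole of culture 1 (0.124).

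The gene of the Ran exchange factor, pim1, had 3.70, 2.54, 1.54, 1.97 and 1.44 in untreated culture 1 and 3.74, 3.12, 2.67, 2.04 and 2.10 in culture 2. Every later array lay below both first ones. Its change was -0.88 ± 0.32 (SE, adjusted p = 0.317) at 120 min, -0.89 ± 0.32 (adjusted p = 0.133) at 180 min and -1.10 ± 0.32 (adjusted p = 0.0363) at 240 min, from 3.72 ± 0.0317 (SD, n = 2) to 1.77 ± 0.468. This call was lost under quantile normalization (adjusted p = 0.0633), median centring (0.0818) and with the arrays compared alone (0.0729). It was also lost without either of the untreated 0 min arrays (0.157 and 0.159), the 240 min array of culture 1 (0.355) or any whole culture (0.0505 to 0.691). With the culture as a block pim1 was called at 120 (adjusted p = 0.0109), 180 (0.00375) and 240 min (0.000565).

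The transcript of hba1, whose product binds Ran and takes part in Crm1 export in fission yeast, rose. In untreated culture 1 its signal was 1.21, 1.23, 1.36, 2.92 and 2.88, and in culture 2 it was 1.02, 1.47, 1.88, 2.61 and 2.25. At 180 and 240 min both cultures lay above every earlier untreated array. The change was 0.53 ± 0.29 (SE, adjusted p = 0.646) at 120 min, 1.32 ± 0.29 (adjusted p = 0.0106) at 180 min and 1.2 ± 0.29 (adjusted p = 0.0139) at 240 min, from 1.11 ± 0.137 (SD, n = 2) to 2.56 ± 0.446. Both calls were lost without the 0 min array of culture 2 (adjusted p = 0.124 and 0.122) and without either whole untreated culture (0.161 to 0.381). The call at 180 min was lost without either 180 min array (0.124 and 0.0609), and that at 240 min without the 0 min or the 240 min array of culture 1 (0.052 and 0.163).

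**Figure D4:**
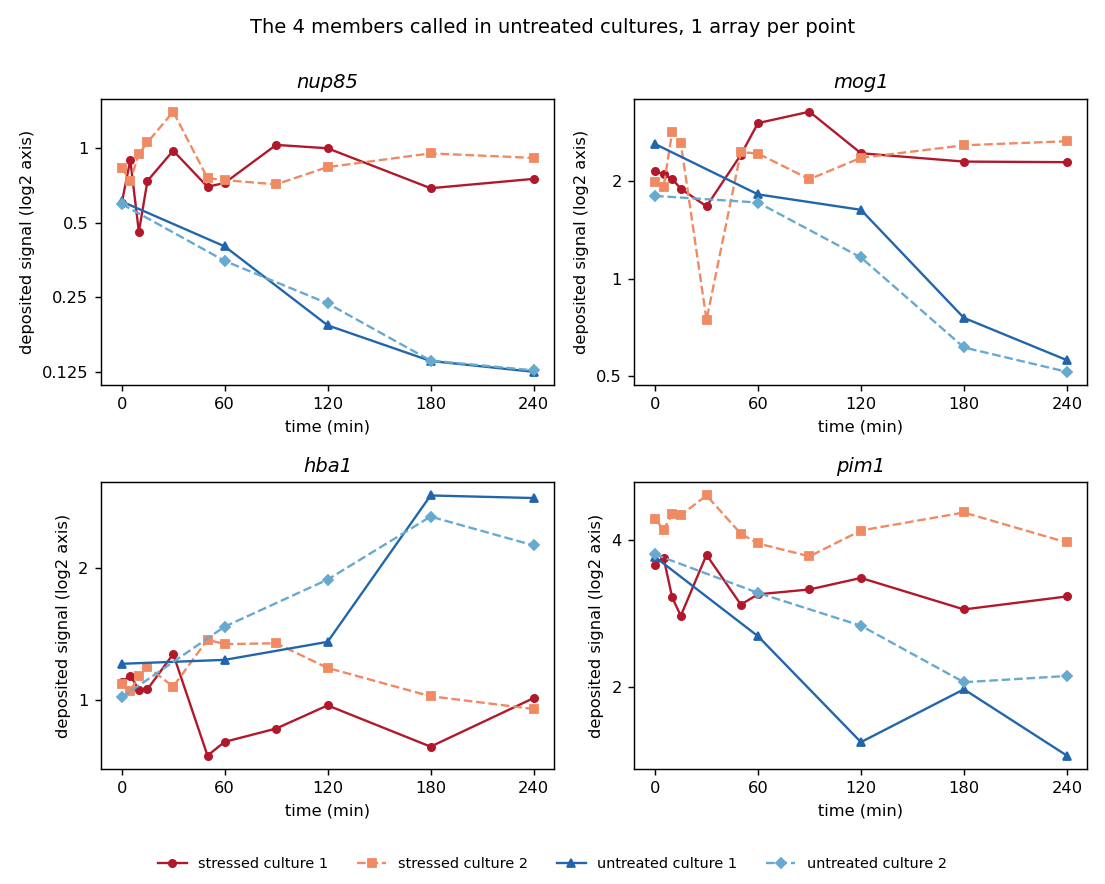
Deposited signal (log2 axis) against time in min for nup85, mog1, hba1 and pim1, with 1 array per point, stressed cultures in red (circles) and orange (squares) and untreated cultures in dark blue (triangles) and light blue (diamonds). By 240 min both untreated cultures are at 0.125 and 0.127 for nup85 and at 0.559 and 0.514 for mog1, below every stressed array, and at 2.88 and 2.25 for hba1, above every stressed array.

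With the culture as a block, which pairs each culture's arrays through time, more members were called in the untreated series. The count was 2 at 120 min (nup85 and pim1, against 3.18% of all probe sets), 5 at 180 min (adding nup60 and pim1 to the 3, against 12.1%) and 8 at 240 min (against 19.1%). The added ones at 240 min, named after their values were seen, were nup60, nup61, nup37 and kap95. The basket gene nup61 had 0.864 and 1.18 at 0 min and 0.485 and 0.527 at 240 min, a change of -1.0 ± 0.34 (SE, adjusted p = 0.0698), and 0.00866 as adjusted p with the block. The basket gene nup60 had 1.93 and 2.42 at 0 min and 1.25 and 1.33 at 240 min (-0.75 ± 0.24, adjusted p = 0.0542, and 0.00941 with the block). Neither gene's groups overlapped.

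The Y complex gene nup37 had 2.25 and 1.79 at 0 min and 1.14 and 1.42 at 240 min, a change of -0.66 ± 0.28 (SE, adjusted p = 0.159, and 0.0441 with the block). The gene of importin beta, kap95, had 4.60 and 6.25 at 0 min and 2.38 and 4.46 at 240 min (-0.72 ± 0.29, adjusted p = 0.138, and 0.0183 with the block). Both genes' later values lay below both first ones.

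Most other members lay slightly below their first level in the untreated cultures. At 60 min 34 of 38 mean changes were below 0, and 24 members were below their 0 min signal in both cultures, a position that 33.9% of all probe sets held. The numbers in both cultures were 25 at 120 min (33.8% of all probe sets), 19 at 180 min (41.1%) and 20 at 240 min (37.5%). Relative to the median of the whole array, the members' median change was -0.23, -0.29, -0.11 and -0.20 at the 4 times. All 4 times of a culture share its 0 min array, which was above the later 4 arrays for 19 members in untreated culture 1 (34.2% of all probe sets) and for 21 in culture 2 (29% of all). No test of the list was made.

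Of the named members that were not called in the untreated series, nup40 stood at 1.06 and 1.16 at 0 min and at 2.12 and 1.71 at 240 min without overlap (0.78 ± 0.45, SE, adjusted p = 0.321). The signal of nup97 was 0.788 and 1.01 at 0 min and 1.14 and 1.25 at 240 min (0.42 ± 0.20, adjusted p = 0.221). That of nup45 was 4.14 and 3.08 at 0 min and 2.39 and 2.21 at 240 min (-0.64 ± 0.30, adjusted p = 0.213). The signal of kap123 was 11.97 and 12.04 at 0 min and 7.39 and 9.99 at 240 min (-0.48 ± 0.48, adjusted p = 0.597). That of nup186 was 2.79 and 2.56 at 0 min and 1.57 and 2.52 at 240 min. In nup40, nup97, nup45, kap123 and nup186 the times did not overlap, a description without a test. For sal3, spi1, mex67, imp3, kap113, kap114, nup44, nup146, nup186 and nxt1 the changes at 240 min lay between -0.45 (imp3) and 0.27 (kap114), with adjusted p of 0.396 or more.

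Homothallic cultures can hold mating cells, so 10 mating and meiosis markers were read beside these results. Their summed signal was between 6.58 and 41.7 on untreated arrays and between 1.68 and 5.43 on stressed arrays, with 10 of 10 on the array and none listed at 0. In untreated culture 1 the sum was 15.1 at 0 min and 7.61 at 240 min, and in culture 2 it was 6.58 and 15.3. In this sum the series lay apart before peroxide, since stressed cultures 1 and 2 had 5.43 and 4.54 at 0 min. By gene the markers went both ways. The stressed less untreated log2 difference at 0 min ran from -1.52 (mfm2, SE 0.99) to 0.76 (mei3, SE 0.49), with map2 at 0.01, and 0 of all probe sets were called. Of the 10, 2 were called higher at 180 min in the untreated series (5.53% of all probe sets were called) and 2 at 240 min (9.86%). Those at 240 min were map2 (1.6 ± 0.34, SE, adjusted p = 0.00585) and mfm3 (1.69 ± 0.29, adjusted p = 0.00124), while 3 of the 10 had mean changes below 0, with mfm2 at -1.28 (adjusted p = 0.482), mei2 at -0.77 (0.436) and mfm1 at -0.69 (0.482). After peroxide 2 of the 10 were called lower at 30 min (1.07% of all probe sets were called). In the difference of changes, taken up next, 1 was called lower at 180 min (1.45%) and mfm3 at 240 min (-1.87 ± 0.41, adjusted p = 0.0259, with 1.49% of all probe sets called). The markers' part in the values of nup85, mog1, pim1 and hba1 was not tested.

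The change in the stressed series was then set against that in the untreated series at the 4 shared times, as the difference of the changes. At 120, 180 and 240 min the stressed change is a mean over 2 cultures that stood apart in the check of the treatment. At 60 min 0 of 38 members were called (0.0402% of all probe sets) and 2 had an unadjusted p under 0.05. At 120 min 0 were called (0.261% of all probe sets, 0.121% higher and 0.141% lower) and 3 had an unadjusted p under 0.05. At 180 min 2 members were called (1.45% of all probe sets) and at 240 min 2 (1.49%), and on both occasions they were nup85 and mog1.

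For nup85 the stressed arrays at 240 min were at 0.752 and 0.914, against 0.6 and 0.835 at 0 min, a change of 0.23 ± 0.30 (SE, adjusted p = 0.942). The untreated arrays had fallen to 0.125 and 0.127. No stressed array at any time was as low as the untreated arrays from 60 min on, the lowest being 0.460 in culture 1 at 10 min. The difference of changes was 1.87 ± 0.43 (adjusted p = 0.0649, and 0.0213 with the block, when 1.71% of all probe sets were called) at 120 min, 2.32 ± 0.43 (adjusted p = 0.00776) at 180 min and 2.49 ± 0.43 (adjusted p = 0.00362) at 240 min.

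For mog1 the stressed arrays were at 2.30 and 2.59 at 180 min and at 2.29 and 2.66 at 240 min, against 2.15 and 1.99 at 0 min. The untreated arrays at those times lay below them without overlap. The difference of changes was 0.69 ± 0.45 (SE, adjusted p = 0.782) at 60 min, 0.87 ± 0.45 (adjusted p = 0.644) at 120 min, 1.91 ± 0.45 (adjusted p = 0.0421) at 180 min and 2.27 ± 0.45 (adjusted p = 0.0127) at 240 min. In both genes the difference came with a stressed change between 0.20 and 0.26 and an untreated change of -1.67 or below.

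These calls rested on few arrays. With the arrays compared alone, none held (adjusted p at 240 min 0.108 for nup85 and 0.118 for mog1). The call of mog1 at 180 min was lost in 11 of 13 fits that left out 1 array or 1 culture, and that at 240 min in 7 of 13 (adjusted p from 0.00291 to 0.288). The call of nup85 at 180 min was lost without the stressed 0 min array of culture 1 (adjusted p = 0.0652), without stressed culture 2 (0.0642) or without either untreated culture (0.182 and 0.184). The call of nup85 at 240 min was lost without either untreated culture (0.149 and 0.0851) and held in the other 11 such fits. The size at 240 min ranged from 2.25 to 2.72 for nup85 and from 2.01 to 2.54 for mog1 over these fits.

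For hba1 the stressed arrays at 240 min were at 1.01 and 0.955 and the untreated ones at 2.88 and 2.25. The difference of changes was -1.61 ± 0.42 (SE, adjusted p = 0.0612) at 180 min and -1.35 ± 0.42 (adjusted p = 0.119) at 240 min, and with the block it was called at both times (adjusted p = 0.0179 and 0.0368). For pim1 the stressed arrays at 240 min were at 3.07 and 3.96 and the untreated ones at 1.44 and 2.10. The difference was 0.91 ± 0.46 (adjusted p = 0.45), and it too was called with the block at 240 min (adjusted p = 0.0473). With the block, 3 members were called at 180 min (4.61% of all probe sets) and 4 at 240 min (6.3%).

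**Figure D5:**
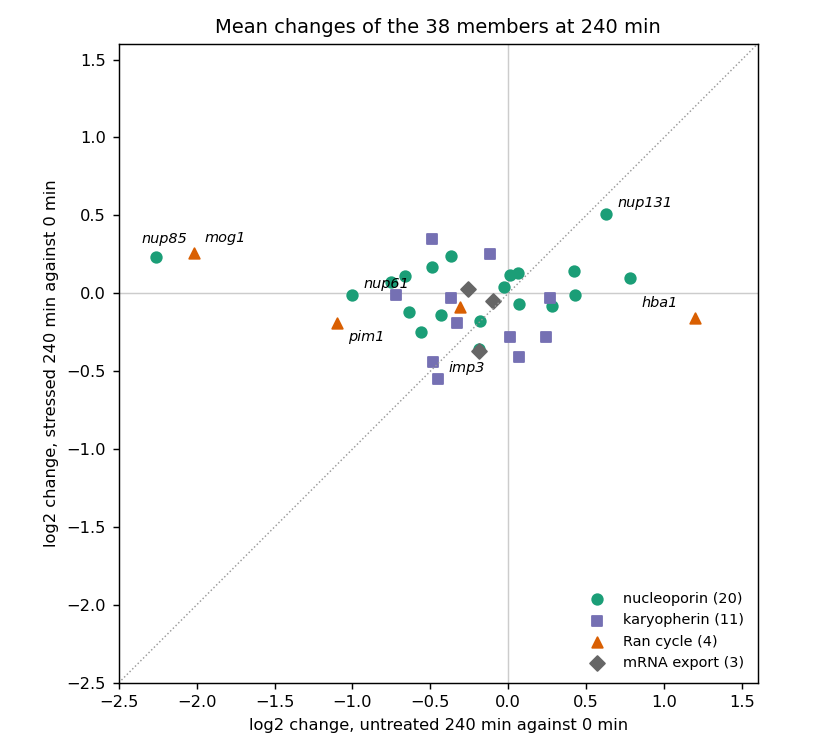
Mean log2 change at 240 min against 0 min in stressed cultures (vertical axis) and untreated cultures (horizontal axis) for the 38 members, with 1 point per gene and the mean of 2 cultures on each axis; the dotted line marks equal changes. The points of nup85 (-2.26 untreated, 0.23 stressed) and mog1 (-2.02, 0.26) lie far to the left near a stressed change of 0. The point of hba1 (1.2, -0.16) lies to the right, and stressed changes span -0.55 to 0.51. At 240 min the oxidative stress genes had a median less that of all probe sets of -0.11 in stressed culture 1 and 1.93 in culture 2.

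Other genes of the pore and of transport, taken from a list of 21 names of which 19 were found, were counted in the same fits. At 60 min after peroxide 0 of 19 were called, with a median -0.25 less that of all probe sets and 4 with an unadjusted p under 0.05. In untreated cultures at 240 min 3 of 19 were called, where 9.86% of all probe sets were, so that the count lies near that share: npp106, a gene of the inner ring, fell by 0.78 (SE 0.17, adjusted p = 0.00674), mlo3, an RNA-binding export adaptor gene, fell by 1.03 (SE 0.32, adjusted p = 0.0454), and ulp1, a SUMO protease gene, rose by 1.13 (SE 0.23, adjusted p = 0.00357). The median of the 19 was -0.33 less that of all probe sets, beside -0.20 for the 38 members. In the difference of changes at 240 min ulp1 was called lower in the stressed series (-1.37 ± 0.32, SE, adjusted p = 0.0358, with 1.49% of all probe sets called).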

How the data were processed

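Per the labels' protocols, total RNA was extracted with hot phenol, labelled with biotin by in vitro transcription and hybridised to Affymetrix arrays. Each array holds a deposited signal for every probe set, linear, with extremes of 0.0029 and 64.6. The authors' steps of background correction, probe summary and scaling are not given in the sources used here. Symbols came from the platform annotation (1 symbol for 2903 probe sets, several for 16, 2053 unnamed here), and 2900 matched a RefSeq gene table by gene ID, which left the members' symbols as they were. Probe sets are 1 per member, and no coordinates were used.

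Signals were log2-transformed with no pseudocount. limma 3.58.1 in R 4.3.3 (lmFit, eBayes) fitted all 32 arrays with 1 mean for each of 16 groups (16 residual degrees of freedom, 3.23 prior). The groups of 2 arrays thereby share 1 estimate of the spread per probe set. limma's moderated p-values were adjusted (Benjamini-Hochberg) over all 4972 probe sets within each of 20 comparisons, with a threshold of 0.05. The script was tested on simulated data. The members, the lists and the alternatives were chosen with earlier results of these data known.

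Values are given per array for 20 members: those called in any comparison, the 8 lowest F-test p-values, the highest and lowest change of each class at 60 and 240 min under stress, the widest and narrowest gap between stressed cultures at 240 min, and crm1, pim1 and spi1. Each culture number is 1 batch culture followed in time, so numbers pair arrays within a series. The culture differences at any pair of times, correlated over probe sets, had a median r of 0.707 in the untreated series (10 of 10 pairs above 0.1) and 0.259 in the stressed series (34 of 55). The main fit leaves this pairing out, so its p-values assume that arrays of the same culture are independent. Alternatives were quantile normalization, median centring, a pseudocount of 0.1, a filter on low signal, probe sets with 1 symbol, the culture as a block, other sets of arrays and leaving out arrays or cultures.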

Additional observations from a re-analysis of the deposited data

Results flagged for a closer look

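The change of nup85 differed between the stressed and the untreated series by the test of the difference itself. The stressed change less the untreated change was 2.32 at 180 min (limma, adjusted p = 0.00776) and 2.49 at 240 min (adjusted p = 0.00362) on the log2 scale, with both stressed cultures above both untreated cultures at each time.

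The change of mog1 differed in the same way, by 1.91 at 180 min (limma, adjusted p = 0.0421) and by 2.27 at 240 min (adjusted p = 0.0127). The changes of both stressed cultures were again above both untreated ones, as for 20.9% and 19.9% of all probe sets at those times. Neither call of mog1 held in limma with the arrays compared alone (adjusted p = 0.118 at 240 min).

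Groups held 2 arrays, so no single array was tested as an outlier within its group.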

How the results depend on the processing

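The changes recomputed singly were the called ones of nup85, mog1, hba1 and pim1 and those at 60 min after peroxide of nup131, kap123, sal3, nup45, nup44, mex67, imp3, rae1 and nup186, and none of these reversed. The changes of the other named members were not recomputed singly. The limits are the 2 arrays per group, the unknown floor of the signal and the unknown scaling by the authors. Counts of members called moved as follows. With the culture as a replicate block they were 1 at 30 min after peroxide, 2, 5 and 8 in untreated cultures at 120, 180 and 240 min, and 1 and 4 in the difference of changes at 120 and 240 min. The block moved no other count by over 1.5 times. With the filter on low signal, which drops nup85, the count was 0 in untreated cultures at 120 min and 1 in the difference of changes at 180 and at 240 min. With only the arrays compared it was 1 at 50 min after peroxide and 0 in untreated cultures at 120 min and in the difference of changes at 180 and 240 min. With all 4 arrays at 0 min as reference it was 2 at 30 and 2 at 50 min. The fit of early stressed arrays gave 1 at 50 min, and early stressed and untreated arrays, added after seeing the data, gave 1 in the F-test, 1 at 30 min, 3 at 50 min and 2 at 60 min. Leaving out 1 array or 1 culture gave 0 to 2 in the F-test, 0 to 2 at 30 min, 0 to 3 at 90 min, 0 to 2 at 120 min and 0 to 1 at 180 min after peroxide, where each count above 0 came without stressed culture 1, except that of 2 at 30 min, without that time's array of culture 1, and 0 at the other stressed times and at 0 min. It gave 0 at 60 min, 0 to 1 at 120 min, 0 to 3 at 180 min and 0 to 5 at 240 min in untreated cultures, and 0, 0 to 1, 0 to 2 and 0 to 2 in the difference of changes at 60, 120, 180 and 240 min, with nup85 called at 120 min without stressed culture 1. Of the results and settings other than the main ones, 680 were the same, by a rule that differed with the kind of result. A single change was the same if it kept direction and side of the threshold. A count was the same if it was equal or within 1.5 times, so counts of 0 that stayed 0 are among these. Of the rest, 62 kept direction and lost the call, 2 gained it and 58 counts moved.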
